A study of Mus musculus with 5 samples.

Results

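The genes described here encode the nuclear part of the oxidative phosphorylation machinery, measured in CD4 T cells sorted from injured mouse kidneys. They were chosen by symbol: every listed gene whose name starts with Ndufa, Ndufb, Ndufc, Ndufs, Ndufv, Uqcr, Cox4i, Cox5, Cox6, Cox7, Cox8, Sdh or Atp5, with pseudogenes left out. The rule found 97 entries among 31053 genes. The rule uses symbols and no measured value, but it was chosen with earlier results of these data known. The entries carry 96 symbols, since Atp5o is listed under a pair of identifiers whose loci overlap on chromosome 16 (ENSMUSG00000022956 and ENSMUSG00000116933), and reads may be split between them. Of the 97 entries, 94 had at least 1 unique molecular identifier (UMI, a tag that marks 1 captured RNA molecule) in a retained cell. Cox7b2, Cox8b and Cox8c had none.

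Oxidative phosphorylation makes most of a resting cell's ATP. Complexes I and II pass electrons from NADH and succinate to ubiquinone, complex III passes them on to cytochrome c, and complex IV hands them to oxygen. Complexes I, III and IV pump protons across the inner mitochondrial membrane, and ATP synthase (complex V) uses the gradient. Most subunits are encoded in the nucleus and imported, while a small set is encoded by mitochondrial DNA. T cells raise both glycolysis and respiration when they are activated and divide, and regulatory T cells are known for a strong reliance on respiration.

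The controls were mice carrying Il1rl1fl/fl alone (2 libraries), and the knockouts carried Il1rl1fl/fl with Foxp3YFP-Cre (3 libraries). Il1rl1 encodes ST2, the interleukin-33 receptor, and Foxp3 drives Cre in regulatory T cells. All mice were 10 weeks old and had undergone unilateral ischemia-reperfusion injury of the kidney. The Cre allele is present only in the knockouts, so its effect and that of losing ST2 cannot be told apart. Nothing in the labels says whether each library came from its own mouse, so the p-values measure the spread between these libraries.

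The libraries held 4580 to 10899 barcodes and 31104939 to 152275841 UMIs, and control 1 was the deepest by a wide margin. Of all barcodes, 38417 passed the filters. Pairs of libraries shared 2 to 39 barcode sequences. Il1rl1 was not lower in the knockouts: in cells with a Foxp3 UMI it stood at 76.2 and 62.0 CPM (counts per 1000000 UMIs of the gate) in controls 1 and 2 and at 151, 61.9 and 68.1 CPM in knockouts 1, 2 and 3. The tags lie near the 3′ end of a transcript and the labels do not give the deleted exons, so these values do not check the deletion.

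Cells were placed in 3 gates by their own UMIs. The Foxp3 gate (at least 1 Foxp3 UMI) held 2602 cells, the Cd4 gate (no Foxp3 UMI, at least 1 Cd4 UMI) held 24713, and the C1q gate (C1qa, C1qb and C1qc together at 5 UMIs or more) held 3024. A cell that met the C1q rule was kept out of the first pair. C1q genes mark macrophages, but 79.8 to 92.2% of the cells in the C1q gate also had a Cd3e UMI, a T cell transcript, and 2265 of them had a Cd4 but no Foxp3 UMI. The 5 T cell markers summed to 2104 to 2394 CPM there, against 2557 to 2851 CPM in the Cd4 gate, while the 10 macrophage markers summed to 6458 to 9572 CPM against 284 to 924 CPM. None of the macrophage markers was at 0 in either gate. The 7 proximal tubule markers, from a cell type rich in mitochondria, summed to 1.24 to 10.7 CPM in the Cd4 gate, 1.60 to 34.3 CPM in the Foxp3 gate and 1.85 to 7.63 CPM in the C1q gate. The gate is therefore named by its rule and not as a cell type. Median UMIs per cell ran from 5035 to 15899 in the Foxp3 gate, from 4295 to 14048 in the Cd4 gate and from 7664 to 19608 in the C1q gate, and in each of the 5 libraries the Cd4 gate was the shallowest.

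Promoter stretches of 5 members are shown because they share a match to NRF1, a factor known for driving respiratory genes, and because the genes behave differently in the depth comparison described further down: Sdhd, Atp5k, Cox6a1 and Ndufs5 rose there and Sdha did not. All lie on the minus strand of GRCm38.p6 and come from RefSeq. They are printed 5′ to 3′ in the direction of the gene, and capitals mark each match to the NRF1 letters, GCGCA and GCGC with any base between them. Sdhd spans chr9:50603879-50603959, Atp5k chr5:108434429-108434509, Cox6a1 chr5:115349058-115349148, Ndufs5 chr4:123718236-123718316 and Sdha chr13:74350241-74350350.
Sdhd: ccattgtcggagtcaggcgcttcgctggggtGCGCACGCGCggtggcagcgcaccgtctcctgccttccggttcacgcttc
Atp5k: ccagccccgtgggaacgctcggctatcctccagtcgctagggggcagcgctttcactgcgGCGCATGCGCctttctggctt
Cox6a1: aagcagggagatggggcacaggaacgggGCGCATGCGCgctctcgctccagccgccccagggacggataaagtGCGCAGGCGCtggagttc
Ndufs5: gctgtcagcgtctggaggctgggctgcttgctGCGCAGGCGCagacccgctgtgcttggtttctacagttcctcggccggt
Sdha: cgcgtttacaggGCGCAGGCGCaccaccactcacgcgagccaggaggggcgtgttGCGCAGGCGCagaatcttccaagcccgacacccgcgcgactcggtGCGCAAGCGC
The Sdha stretch holds the most matches of the 5 and the Cox6a1 stretch holds a pair. The stretches were cut differently for each gene, with 110 bases for Sdha, 91 for Cox6a1 and 81 for Sdhd, Atp5k and Ndufs5. Their numbers of matches can therefore not be compared.

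Promoter windows were found for 78 of the 96 symbols. The NRF1 match was present, on either strand, in 21 of the 78 (26.9%), against 5.19% of 27025 genes with windows of the same length. The YY1 letters AAGATGGC were in 12.8% of the members and 3.19% of all genes. The ETS letters CCGGAAGT, bound by the GABP factor among others, were in 6.41% and 4.31%, and the ERR letters TCAAGGTCA in 2.56% and 0.466%. At least 1 of the NRF1, ETS and YY1 matches was in 34 member windows (43.6%), against 11.7% of all genes. These are matches of letters, not measured binding. The 27025 genes were not limited to those expressed in these cells, whereas nearly all members were detected.

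By role, the entries fall into 7 core, 29 accessory and 8 assembly genes of complex I, 4 subunits and 4 assembly factors of complex II, 8 subunits of complex III, 11 subunits and 8 tissue-restricted isoforms of complex IV, 5 genes of the F1 head and 11 of the Fo part and stalk of ATP synthase, the supercomplex factor Cox7a2l, and Atp5s, an ATP synthase coupling factor. Together they took 0.959% and 1.01% of the Cd4 gate's UMIs in controls 1 and 2 and 0.898%, 0.991% and 1.09% in knockouts 1, 2 and 3. As means of the 5 libraries of the Cd4 gate, the accessory subunits of complex I gave 0.243% of UMIs, complex IV 0.230%, the Fo part and stalk 0.183%, the F1 head 0.112% and complex III 0.0935%. Complex I core subunits gave 0.0427% and complex II subunits 0.0289%. Since 3′ tags count molecules, CPM values are not scaled by transcript length.

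Cox4i1, the regulatory subunit of complex IV, was the most abundant member by UMIs over all retained cells (119283), followed by Atp5h (106838), a stalk subunit of ATP synthase, and Uqcrh (102973), the hinge protein of complex III. In the Cd4 gate Cox4i1 stood at 334 and 416 CPM in the controls and at 342, 363 and 407 CPM in the knockouts. The lowest and the highest values both came from controls, so the groups overlapped. Sdha, the flavoprotein of complex II, varied little between libraries, at 111 and 109 CPM in the controls and 117, 115 and 117 CPM in the knockouts. Atp5k, a small Fo subunit, varied most among the members whose range between libraries was computed: it stood at 76.7 and 39.4 CPM in the controls and at 33.8, 61.7 and 42.1 CPM in the knockouts, a range of 1.16 on the log2 scale.

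The tissue-restricted isoforms of complex IV were scarce. Cox4i2, the hypoxia-responsive partner of Cox4i1, had 7 UMIs over all retained cells, Ndufa4l2 had 13, Cox7a1 had 114, Cox6b2 had 313 and Cox6a2 had 324. Cox6a2, the isoform of heart and skeletal muscle, was uneven: the Cd4 gate held 190 and 18 of its UMIs in controls 1 and 2 and 0, 22 and 2 in knockouts 1, 2 and 3. Control 1 alone therefore held most of them. The filter on low counts left Cox4i2, Cox7b2, Cox8b, Cox8c and Ndufa4l2 out of the knockout test in the Cd4 gate, and Cox6a2, Cox6b2, Cox7a1 and the second Atp5o identifier as well in the Foxp3 gate.

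The ubiquitous subunits of each complex were detected in every library. In the Cd4 gate Cox8a, a small complex IV subunit, stood at 289 and 331 CPM in the controls and at 262, 340 and 359 CPM in the knockouts, and Cox6c, another of them, at 195 and 160 CPM and at 140, 182 and 196 CPM. Atp5g2, another gene for the c-ring, stood at 248 and 269 CPM and at 271, 195 and 285 CPM. In all 3 genes the knockouts enclosed the controls. Cox7a2 of complex IV, Uqcrq and Uqcrc1 of complex III, Sdhb, the iron-sulfur subunit of complex II, and Ndufa1 and Ndufab1 of complex I, the latter also an acyl carrier protein, lay between 48.3 and 154 CPM in every library. Their log2 fold changes between knockout and control in this gate ran from -0.14 for Ndufa1 to 0.10 for Sdhb, and none passed (adjusted p = 0.999 for each by edgeR).

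The first question was whether the genes differed between knockout and control libraries. No member passed in any gate, out of 88 tested in the Foxp3 gate, 92 in the Cd4 gate, 90 in the C1q gate and 92 in all retained cells (edgeR's quasi-likelihood test, Benjamini-Hochberg adjusted over all genes, threshold 0.05). The percentage of all genes called was 0 in each of these comparisons. At an unadjusted p under 0.05 there were 0 members in the Foxp3 gate, 1 in the Cd4 gate (Sdhaf1), 2 in the C1q gate (Sdhaf1 and Cox5a) and 1 in all cells (Sdhaf1), against 527, 727, 433 and 899 of all genes. DESeq2 called no member in any of the 4, although over all genes it called 12 higher and 4 lower in the Foxp3 gate and 28 higher and 31 lower in the Cd4 gate. The median log2 fold change of the members, knockout over control, was -0.07 in the Foxp3 gate, -0.003 in the Cd4 gate and 0.03 in the C1q gate, against -0.01, 0.01 and 0.01 for all genes tested. With 1 library left out it ran from -0.085 to -0.025 in the Foxp3 gate. That of the Cd4 gate went from -0.100 without knockout 3 to 0.062 without knockout 1, and that of the C1q gate from -0.023 to 0.089 without the same libraries. Median standard errors of the members' fold changes were 0.13, 0.15 and 0.14 in these gates.

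The members' share of UMIs varied in the same way. In the Foxp3 gate controls 1 and 2 gave 1.03% and 1.06%, and knockouts 1, 2 and 3 gave 0.973%, 1.04% and 1.02%, with means of 1.04 ± 0.0192% (SD, n = 2) and 1.01 ± 0.0357% (SD, n = 3). In the Cd4 gate the means were 0.985 ± 0.0368% (SD, n = 2) and 0.994 ± 0.0974% (SD, n = 3), and in the C1q gate 1.04 ± 0.0235% (SD, n = 2) and 1.08 ± 0.100% (SD, n = 3). In both of those gates knockout 1 was the lowest library and knockout 3 the highest, so the knockouts enclosed the controls. Knockout 3 also had the highest Mki67 level in the Cd4 gate, 745 CPM against 320 to 442 CPM in the other libraries. The part of dividing cells in its high share was not tested.

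**Figure D1:**
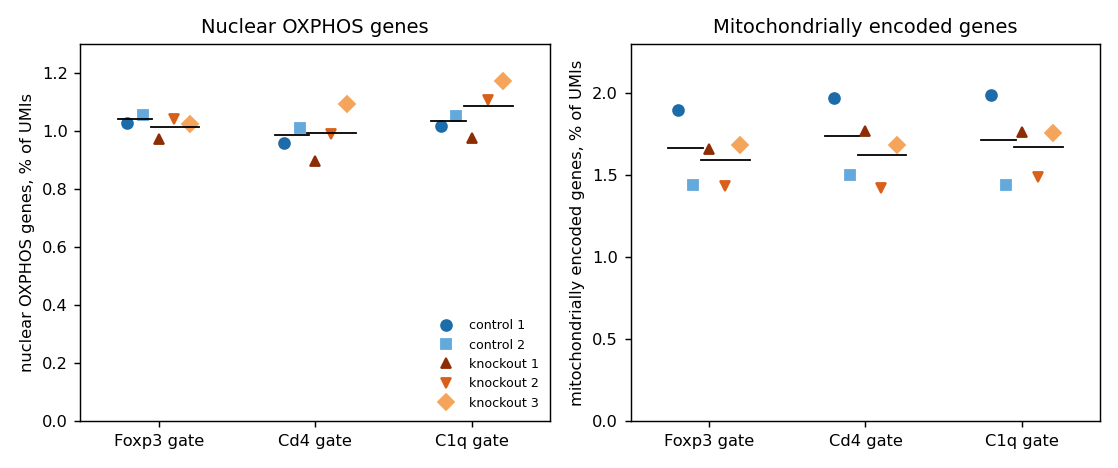
Percent of each gate's UMIs that came from the 97 nuclear oxidative phosphorylation genes (left) and from mitochondrially encoded genes (right); each point is 1 of the 5 libraries and black lines are group means. Control and knockout points overlap in every gate on the left (0.898% to 1.09% in the Cd4 gate), and control 1 is the highest library in every gate on the right.

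Sdhaf1, an assembly factor needed to mature the iron-sulfur subunit of complex II (chr7:30321406-30323895, minus strand, GRCm38), had the smallest p of the members in the Cd4 gate. It stood at 22.2 and 19.1 CPM in the controls and at 29.1, 28.2 and 30.6 CPM in the knockouts. All 3 knockouts lay above both controls. The log2 fold change was 0.48 ± 0.11 (SE), with an unadjusted p of 0.00465 and an adjusted p of 0.848 by edgeR, so it did not pass. Over 16 alternatives its fold change ran from 0.39 to 0.59 and its adjusted p from 0.0833 to 0.962. In the C1q gate Sdhaf1 stood at 22.0 and 18.2 CPM against 31.7, 31.8 and 28.4 CPM, again without overlap, and in the Foxp3 gate at 31.9 and 33.0 CPM against 31.4, 40.6 and 36.6 CPM, where the groups overlapped. The same libraries supply all the gates, so these are not independent observations.

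Cox5a, a nuclear subunit of complex IV (chr9:57521274-57532426, plus strand), stood at 183 and 223 CPM in the controls and at 241, 264 and 306 CPM in the knockouts of the C1q gate. The groups did not overlap there. The fitted change, 0.37 ± 0.14 (SE) on the log2 scale, did not pass (adjusted p = 1.00 by edgeR). In the Cd4 gate the values were 171 and 228 CPM against 214, 223 and 267 CPM, and the groups overlapped. Cox7a2l, which joins complexes III and IV into supercomplexes, leaned the other way in the Foxp3 gate, at 264 and 314 CPM against 248, 258 and 249 CPM. Its log2 fold change of -0.23 ± 0.11 (SE) did not pass either (adjusted p = 1.00 by edgeR).

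Members whose control and knockout libraries did not overlap were also counted. In the Foxp3 gate they were 7 of 88 (7.95%), against 20.1% of all genes tested: Atp5f1, Ndufa9 and Sdha lay higher in the knockouts and Sdhc, Ndufc2, Atp5s and Cox7a2l lower. In the Cd4 gate they were 5 of 92 (5.43%, against 19.3%): Ndufs1, Sdhaf1 and Sdha lay higher and Cox6a2 and Ndufa6 lower. In the C1q gate they were 7 of 90 (7.78%, against 17.8%), and all of these lay higher in the knockouts, namely Atp5c1, Atp5f1, Sdhaf3, Sdhaf1, Cox5a, Ndufaf8 and Ndufv1.

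A member was called in 1 setting only. Without a filter on low counts, Cox6a2 was called lower in the knockouts of the Cd4 gate (log2 fold change -2.16, adjusted p = 0.0247 by edgeR), on the 190 UMIs of control 1 described above. With the filter its fold change was -2.15 ± 0.98 (SE) and its adjusted p 0.899. The knockout effect was also compared between the Foxp3 and the Cd4 gate by an interaction term. None of 91 members passed, against 0.0372% of all genes tested, and the smallest unadjusted p values were those of Atp5s (0.0623) and Sdhaf1 (0.0802). Of the other mitochondrial genes, no mitochondrially encoded transcript, electron carrier, assembly factor outside the naming rule or citric acid cycle gene passed in any gate.

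The next comparison set the gates against each other within the libraries. Between the Foxp3 and the Cd4 gate, 4 members were higher and 5 lower of 90 tested, while 10.9% of all 12503 genes were called higher and 8.66% lower. These are 4.44% and 5.56% of the members tested. The median log2 fold change was 0.02 for the members and -0.01 for all genes. Sdhaf1 rose by 0.41 ± 0.09 (SE, adjusted p = 0.00976), Uqcr11 by 0.28 ± 0.07 (SE, adjusted p = 0.0144), Uqcr10 by 0.17 ± 0.05 (SE, adjusted p = 0.0418) and Atp5d by 0.15 ± 0.04 (SE, adjusted p = 0.0106), all by edgeR with the library as a term. Uqcr10 and Uqcr11 are small accessory subunits of complex III, and Atp5d is the delta subunit of the F1 central stalk.

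Uqcr11 (chr10:80402997-80406830, minus strand) stood at 75.4, 62.8, 55.6, 81.2 and 60.2 CPM in the Foxp3 gate of controls 1 and 2 and knockouts 1, 2 and 3, and at 59.6, 51.0, 38.6, 60.2 and 62.1 CPM in the Cd4 gate. It was higher in the Foxp3 gate of 4 of the 5 libraries, and knockout 3 was the exception. Atp5d stood at 190, 269, 231, 227 and 255 CPM in the Foxp3 gate and at 169, 225, 201, 203 and 219 CPM in the Cd4 gate, higher in all 5 libraries.

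The 5 members that were lower in the Foxp3 gate were Ndufaf2, an assembly factor of complex I (-0.27 ± 0.08 SE), Ndufa10, an accessory subunit of complex I (-0.19 ± 0.04), Cox7a2l (-0.19 ± 0.04), Atp5h (-0.16 ± 0.04) and Ndufa6 (-0.13 ± 0.04). Their adjusted p values ran from 0.00563 for Cox7a2l to 0.0427 for Ndufaf2 by edgeR. Cox7a2l stood at 264, 314, 248, 258 and 249 CPM in the Foxp3 gate and at 281, 339, 290, 287 and 270 CPM in the Cd4 gate, lower in every library. None of the 11 complex IV subunits and none of the 7 complex I core subunits passed in either direction.

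These calls changed with thinning and with single libraries left out. Thinning before gating also changed which cells met the gates, from 747 to 343 cells in the Foxp3 gate of control 1. The counts below are given without the share of all genes called in the same setting. With each cell thinned to 2000 UMIs before gating, 0 members were higher and 10 lower. With gating on all UMIs followed by thinning, Ndufc2 alone was higher and Atp5h, Atp5l, Cox7a2l and Ndufb4 were lower. Without knockout 3, 12 were higher, and without control 1, knockout 1 or knockout 2 only 2 were; the lower calls fell to 3 without control 1, knockout 1 or knockout 2 and to 2 without control 2. The share of UMIs was 0.0343 percentage points higher in the Foxp3 than in the Cd4 gate on average (SD 0.0590, n = 5), and it was lower in the Foxp3 gate of knockout 3. The average turned to -0.0033 points without the deepest 5% of cells, to -0.0207 with thinning after gating and to -0.0859 with thinning before it, lower in all 5 libraries with either thinning. The median log2 fold change of the members was -0.03, -0.05 and -0.15 in these settings.

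Beside these members, 5 of the 13 mitochondrially encoded genes were lower in the Foxp3 gate and none higher, among them mt-Nd1 (-0.20 ± 0.04 SE) and mt-Nd2 (-0.21 ± 0.04 SE), which encode complex I subunits. Of 8 oxidant defence genes, Gpx1 (0.41 ± 0.05 SE) and Gpx4 (0.42 ± 0.05 SE), a pair of glutathione peroxidases, were higher. Atpif1, the inhibitor of ATP synthase running in reverse, was higher by 0.37 ± 0.08 (SE), while Atpaf1 and Cox10, an F1 assembly factor and a heme synthesis enzyme, were lower by 0.25 and 0.29. None of 14 citric acid cycle genes passed.

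**Figure D2:**
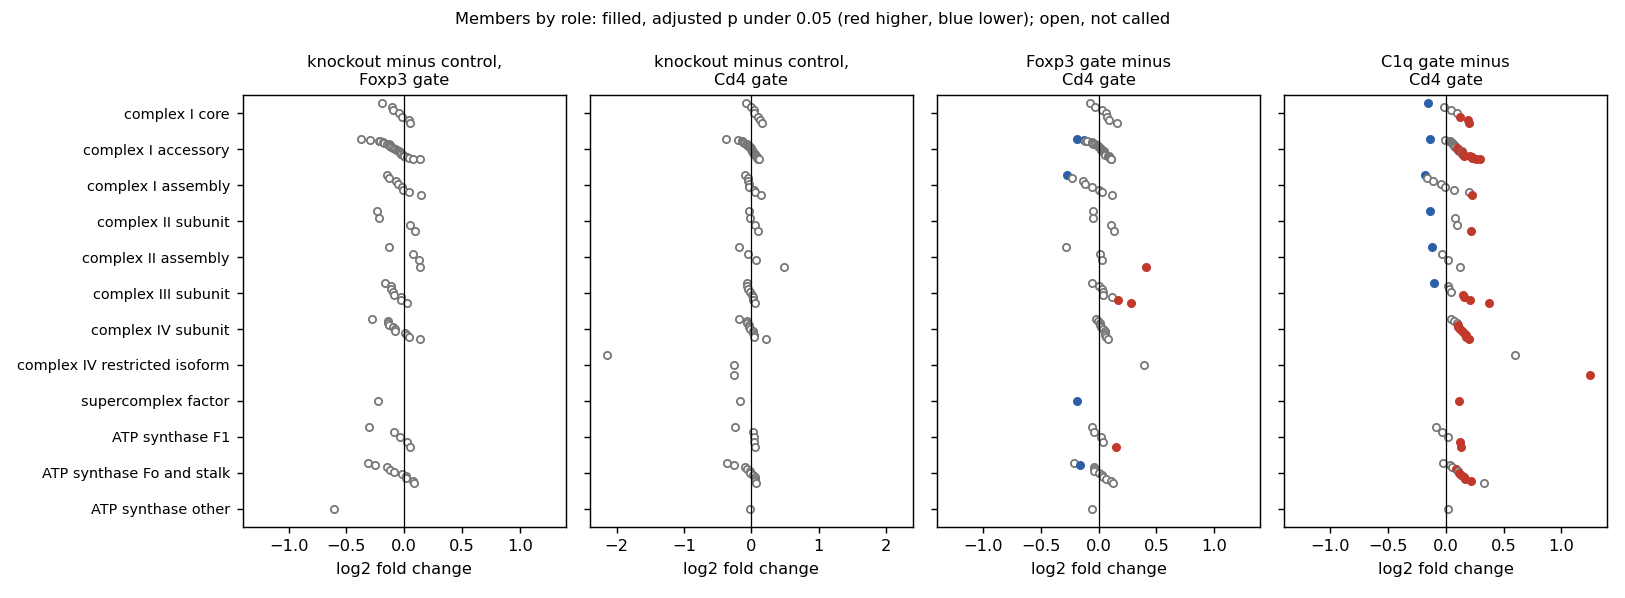
Log2 fold change of each tested member, grouped by role, in 4 comparisons; red points were called higher and blue points lower (edgeR, adjusted p under 0.05), and open grey points were not called. The 2 left panels, knockout minus control, hold no filled point, and the right panel, C1q gate minus Cd4 gate, holds 42 red and 6 blue points. The Cd4 gate knockout panel has a wider axis, since Cox6a2 lies at -2.15.

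Between the C1q and the Cd4 gate, 42 members were higher and 6 lower of 91 tested, while 21.9% of all 12654 genes were called higher and 17.5% lower. The changes were small: the median log2 fold change of the members was 0.10, against -0.01 for all genes. By role, 8 of 11 complex IV subunits were higher, 6 of 11 of the Fo part and stalk, 15 of 29 complex I accessory subunits, 4 of 8 of complex III, 3 of 7 of the complex I core and 2 of 5 of the F1 head. Only 1 of 8 complex I assembly factors was higher, Ndufaf8, named after its value was seen.

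Uqcr11 had the smallest p, at 74.3, 65.4, 52.6, 81.1 and 80.9 CPM in the C1q gate of controls 1 and 2 and knockouts 1, 2 and 3, against the Cd4 gate values above. It was higher in all 5 libraries, by 0.37 ± 0.03 on the log2 scale (SE, adjusted p = 3.2e-05 by edgeR). Ndufb8, an accessory subunit of complex I, stood at 85.6, 120, 97.7, 107 and 137 CPM against 75.2, 92.0, 79.9, 86.1 and 104 CPM, again higher in each library. Its log2 fold change was 0.30 ± 0.03 (SE). Others named by the rule were Ndufa7 (0.26), Ndufc2 (0.23), Atp5g1 (0.22), Ndufa2 (0.21), Cox4i1 (0.20) and Cox6b1 (0.18), subunits of complex I, ATP synthase and complex IV.

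Cox6b2, an isoform of a complex IV subunit known from testis (chr7:4751792-4753094, minus strand), had the largest fold change at 1.25 ± 0.26 (SE, adjusted p = 0.00484 by edgeR). It rested on few molecules: the C1q gate held 28, 15, 9, 14 and 17 of its UMIs and the Cd4 gate 94, 19, 10, 31 and 12. As levels these were 1.92, 1.97, 1.23, 1.16 and 2.46 CPM against 0.84, 0.69, 0.38, 0.88 and 0.69 CPM, higher in all 5 libraries but far below its ubiquitous counterpart Cox6b1. The members that were lower in the C1q gate were Ndufaf2 (-0.18), Ndufs1 (-0.15), Sdha (-0.14), Ndufa10 (-0.13), Sdhaf2 (-0.12) and Uqcrc2 (-0.10), that is 3 of complex I, 2 of complex II and a core protein of complex III.

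The C1q gate mixed T cell and macrophage transcripts, and its cells were deeper than those of the Cd4 gate in each library. More of them had a Mki67 or Top2a UMI in each library, 53.0 to 74.2% against 31.1 to 51.2%, which depth alone can raise. Of the 42 members higher in the C1q gate, 37 (88.1%) were also higher in the comparison by Mki67 or Top2a described further down. There 78.7% of all members tested were higher. The part of dividing cells in the C1q calls was not tested. When cells with a Cd3e, Cd3d, Cd3g or Trac UMI were taken out, 24 to 62 cells per library were left. Of the members, Ndufc2 (0.96) and Uqcr11 (0.89) were then called higher, and Ndufa10 (-0.96), Ndufs4 (-0.75), Sdhaf1 (-2.69) and Sdhaf2 (-1.11) lower, as log2 fold changes. With all cells the share of UMIs was 0.0747 percentage points above the Cd4 gate (SD 0.0281, n = 5) and higher in each library. Without those cells it was 0.0297 points below on average (SD 0.110, n = 5), above in 2 libraries and below in 3, and without control 2 the average was 0.0052 points above. With each cell thinned to 2000 UMIs before gating, 21 members were higher and 1 lower. Without knockout 3, 24 were higher, and without control 2, knockout 1 or knockout 2 the lower calls fell to 3. The share of all genes called is not given for these alternatives.

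Other mitochondrial genes in the C1q gate moved less evenly. None of 13 mitochondrially encoded genes was higher and 3 were lower, and of 14 citric acid cycle genes 2 were higher and 2 lower. Of 8 oxidant defence genes 6 were higher, led by Gpx1 at 1.12 ± 0.05 (SE) and Prdx5 at 0.47 ± 0.06 (SE). Atpif1 rose by 0.83 ± 0.04 (SE), more than any member except Cox6b2. Of 15 regulators 4 were higher and 3 lower. Gabpa and Gabpb1, the subunits of the ETS factor GABP, and Tfam, which packages and transcribes mitochondrial DNA, were lower by 0.25, 0.18 and 0.25. Higd2a (0.20), Chchd2 (0.12), the coactivator Pprc1 (0.20) and the growth factor-responsive transcription factor Myc (0.28) were higher.

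Larger differences of the members lay inside the gates, along the number of UMIs per cell. This comparison was added after the values were seen. Within each library and gate the cells were ranked by total UMIs, and the deepest quartile was compared with the shallowest, with the library as a term. In the Cd4 gate 71 of 89 members were higher in CPM in the deepest quartile and 2 were lower, while 24.4% of all 11777 genes were called higher and 19.4% lower. The median log2 fold change was 0.56, against 0.004 for all genes. In all 5 libraries 63 members were higher, a count that was not made over all genes. In the Foxp3 gate 75 of 87 were higher and none lower (23.1% and 16.6% of all 8779 genes), at a median of 0.98. The calls of these gates come from different cells of the same libraries: 70 members were higher in both, 98.6% of the 71 and 93.3% of the 75. Of all members tested, 79.8% were higher in the Cd4 gate and 86.2% in the Foxp3 gate, so a large overlap follows from these rates. The overlap was not counted over all genes.

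As shares of UMIs in the Cd4 gate, the members went from 0.631% to 1.10% in control 1, from 0.945% to 1.06% in control 2, from 0.687% to 0.978% in knockout 1, from 0.733% to 1.11% in knockout 2 and from 0.760% to 1.24% in knockout 3, shallowest to deepest quartile. In the Foxp3 gate they went from 0.359 to 0.741% in the shallowest quartile to 1.09 to 1.21% in the deepest. The direction from the shallowest to the deepest quartile was the same in all 5 libraries of both gates. Control 2 had the smallest step in the Cd4 gate and did not rise steadily. Its quartiles stood at 0.945%, 1.02%, 0.935% and 1.06%, shallowest to deepest. In the C1q gate the share was higher in the deepest quartile of 4 of the 5 libraries, from 1.08% to 1.23% in knockout 3 and from 0.965% to 0.983% in knockout 1, and lower in control 2, from 1.14% to 0.975%.

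**Figure D3:**
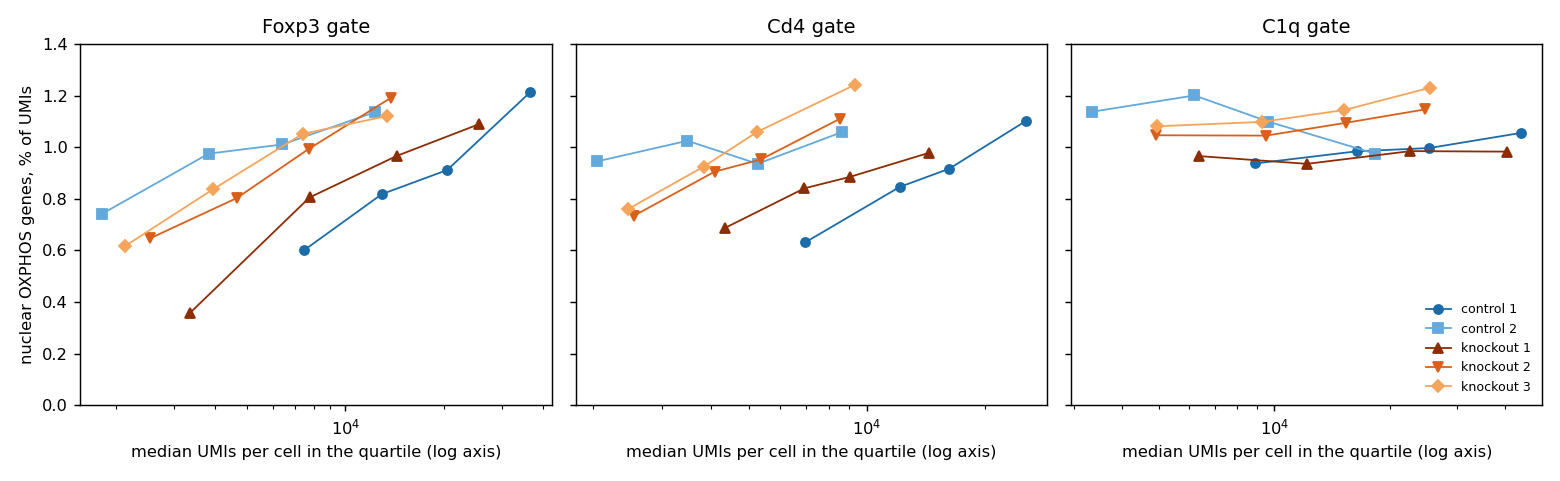
Percent of UMIs from nuclear oxidative phosphorylation genes in each quartile of cells, ordered by UMIs per cell (log axis), for the Foxp3, Cd4 and C1q gates; lines join the 4 quartiles of 1 library. Every line ends higher than it starts in the Foxp3 and Cd4 gates (0.631% to 1.10% in control 1, Cd4 gate), while in the C1q gate 4 of the 5 lines end higher and that of control 2 ends lower (1.14% to 0.975%).

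Complex IV and the F1 head were called without exception in the Cd4 gate, with 11 of 11 and 5 of 5 members higher. Accessory subunits of complex I followed with 27 of 29, the Fo part and stalk with 10 of 11, complex III with 7 of 8, complex I core with 5 of 7 and complex II subunits with 3 of 4. Of the assembly factors, 2 of 8 for complex I and 1 of 4 for complex II were higher, and whether they differ from the subunits was not tested. Cox5a stood at 82.5, 169, 149, 135 and 153 CPM in the shallowest quartile and at 219, 261, 250, 267 and 344 CPM in the deepest, without overlap. Its log2 fold change was 0.97 ± 0.12 (SE, adjusted p = 3.52e-05 by edgeR). Atp5g3 (chr2:73908447-73911326, minus strand), 1 of the genes for the proton-carrying c-ring, rose by 0.96 ± 0.12, from 54.8, 75.6, 76.1, 57.9 and 65.3 CPM to 128, 123, 119, 112 and 173 CPM.

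Further members named by the rule in the Cd4 gate were Sdhd, a membrane anchor of complex II (0.88 ± 0.12 SE), Ndufb6 (0.87 ± 0.10), Ndufc2 (0.86 ± 0.10), Ndufc1 (0.73 ± 0.10), Ndufa4, a subunit of complex IV despite its name (0.75 ± 0.10), and Atp5b, the catalytic beta subunit (0.84 ± 0.11). In the Foxp3 gate the changes of the same kind were larger: Cox5a rose by 1.69 ± 0.16 (SE), Uqcr10 by 1.56 ± 0.19, Ndufb9 by 1.51 ± 0.17, Atp5b by 1.48 ± 0.14 and Atp5g1 by 1.46 ± 0.16. The difference between the gates was not tested. In the shallowest Foxp3 quartile 41.2 to 78.1% of cells had a Cd3e UMI, against 94.2 to 100% in the deepest, which depth alone can raise. Ribosomal protein genes took 3.01 to 8.48% of UMIs in the shallowest Foxp3 quartile and 11.4 to 13.3% in the deepest. The lowest of these values came from the 68 cells of knockout 1, which also gave the 0.359% share of the members. The part of such cells in the larger changes was not tested.

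A few members did not follow in the Cd4 gate. Sdha, the catalytic subunit of complex II, stood at 104, 106, 118, 123 and 122 CPM in the shallowest quartile of the Cd4 gate and at 109, 113, 114, 107 and 115 CPM in the deepest. Its log2 fold change was -0.05 ± 0.08 (SE), beside 0.88 for Sdhd of the same complex. Ndufs1, the largest core subunit of complex I, was at 0.06 ± 0.08 (SE), Ndufs4 at -0.09, Ndufa6 at 0.12 and Cox7a2l at 0.19, none of which passed. In the Foxp3 gate Cox7a2l was called higher in the deepest quartile, by 0.68 ± 0.15 (SE, adjusted p = 0.000912 by edgeR). The 2 called lower in the Cd4 gate were Sdhaf3, an assembly factor of complex II (-0.41 ± 0.14 SE, adjusted p = 0.0317 by edgeR), and the second Atp5o identifier (-0.82, adjusted p = 0.0454), which overlaps the first. DESeq2 called neither lower, and no member was called lower when knockout 1, 2 or 3 was left out. When control 1 was left out 1 member was called lower, and when control 2 was left out 4 were.

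Members were also counted by whether their promoter window held the NRF1 letters. With a match, 14 of 20 tested members were higher in the deepest quartile of the Cd4 gate, at a median log2 fold change of 0.49, and without one 45 of 53, at a median of 0.59. In single genes, the match stood beside 0.88 for Sdhd, 0.75 for Cox6a1, 0.69 for Atp5k, 0.52 for Ndufs5 and -0.05 for Sdha. No test of the difference was made.

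Other measures moved along the same order of cells in the Cd4 gate. The share of cells with a Cd3e UMI went from 53.6 to 76.4% in the shallowest quartiles to 93.0 to 99.7% in the deepest, and the share with a Mki67 or Top2a UMI, transcripts of dividing cells, from 13.6 to 30.6% to 57.7 to 78.0%. Both are shares of cells with a UMI, which depth alone can raise, and they were not thinned. Mitochondrially encoded UMIs went from 1.73 to 2.94% down to 1.39 to 1.77%, and the nuclear RNA Malat1 from 1.70 to 2.46% down to 0.796 to 1.13%. The part of these in the result was not tested. Without cells that had a Mki67 or Top2a UMI, 34 of 88 members tested were called higher in the Cd4 gate (median 0.35), where 11.0% of all genes were. In the Foxp3 gate 43 of only 71 members tested were (median 0.77), where 13.5% of all genes were.

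**Figure D4:**
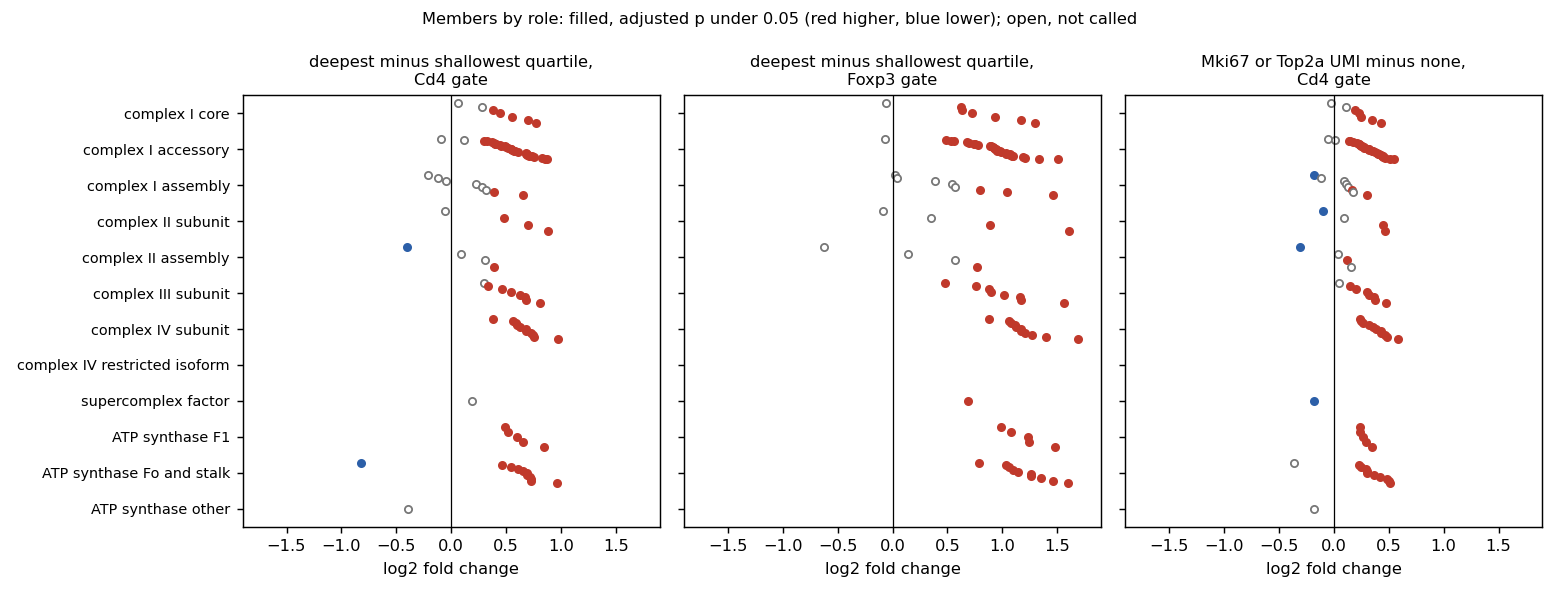
Log2 fold change of each tested member, grouped by role, between the deepest and the shallowest quartile of cells in the Cd4 and Foxp3 gates and between cells with and without a Mki67 or Top2a UMI in the Cd4 gate; red was called higher, blue lower and open grey points were not called (edgeR, adjusted p under 0.05). Of the members tested, 71, 75 and 70 are red in the 3 panels, and complex IV subunits are red in all of them.

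Other genes of the respiratory system were counted in the same comparison. Of the 13 mitochondrially encoded genes, 11 were lower and none higher in the deepest quartile of the Cd4 gate, at a median of -0.52, with mt-Cytb at -0.76 ± 0.11 (SE). Cells with 10% or more mitochondrial UMIs had been removed from every library, which limits this measure. The nuclear electron carriers rose, Cycs (cytochrome c) by 0.97 ± 0.12 (SE) and Cyc1 (cytochrome c1) by 0.69 ± 0.12 (SE). Of 14 citric acid cycle genes 9 were higher, led by Fh1 (fumarase, 0.89), and Suclg2 was lower (-0.45). Of 34 assembly factors outside the naming rule 9 were higher and 3 lower, and Taco1, a translation activator of mt-Co1, was lower by 1.57. Of 15 regulators, Higd1a (0.58), Chchd2 (0.59), Tfam (0.43) and Myc (0.57) were higher, and Ppargc1b (-0.70), Nrf1 (-0.38) and Esrra (-0.32), transcriptional regulators of respiratory genes, were lower. The adenine nucleotide carrier Slc25a5 rose by 1.16 ± 0.10 (SE). Cytosolic ribosomal protein genes were higher in 32 of 97 and lower in 1 in this gate, and higher in 85 of 93 in the Foxp3 gate.

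Cells of the Cd4 gate with a Mki67 or Top2a UMI were then compared with those without one, also after the values were seen. Of 89 members 70 were higher and 4 lower, while 23.2% of all 12281 genes were called higher and 22.9% lower. The members took 1.05%, 1.14%, 0.964%, 1.08% and 1.21% of UMIs in cells with such a UMI and 0.808%, 0.909%, 0.815%, 0.898% and 0.926% in cells without, in controls 1 and 2 and knockouts 1, 2 and 3. Each of the 5 libraries showed the same direction. In all 5, 73 members were higher, again without a count over all genes. Cells with such a UMI were also deeper, at median UMIs of 16597 against 11911 in control 1 and 6114 against 3728 in knockout 3. Within the deepest quartile alone, 68 of 88 members tested were higher and 1 lower, where 18.0% of all genes were called higher and 17.6% lower. Inside that quartile, cells with such a UMI were still deeper in each of the 5 libraries. Their median UMIs were 26605 against 22017 in control 1 and 9748 against 8067 in knockout 3, so depth was not matched.

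Cox5a rose by 0.58 ± 0.05 (SE, adjusted p = 1.13e-05 by edgeR), from 120, 177, 175, 191 and 189 CPM to 202, 293, 245, 253 and 322 CPM. Those ranges do not overlap. Atp5g3 and Ndufb6 each rose by 0.51, Atp5j, a stalk subunit, by 0.49, Cox5b, the zinc-binding subunit of complex IV, by 0.48 and Uqcr10 by 0.48. The members called lower were Sdhaf3 (-0.31 ± 0.07 SE), Cox7a2l (-0.18 ± 0.05), Ndufaf4 (-0.18 ± 0.05) and Sdha (-0.09 ± 0.03). When control 1, knockout 2 or knockout 3 was left out, 2 members were called lower. Cox7a2l stood at 288, 370, 299, 291 and 296 CPM in cells without such a UMI and at 277, 301, 282, 284 and 252 CPM in cells with one, lower in each library.

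All 13 mitochondrially encoded genes were lower in the cells with a Mki67 or Top2a UMI, at a median of -0.22, and mt-Nd2 was lower by 0.35 ± 0.04 (SE). Ribosomal protein genes were higher in 4 of 99 and lower in 54, so the nuclear respiratory genes and the ribosomal protein genes moved in opposite directions here. Cycs rose by 0.51 ± 0.05 (SE) and Fh1 by 0.60 ± 0.05 (SE). The inhibitor Atpif1 rose by 0.72 ± 0.04 (SE).

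The members' spread between libraries was set against transcript length. For each of 87 members in the Cd4 gate, the log2 deviation of a library from the mean of the 5 was paired with transcript length. That length was the median over the gene's annotated protein-coding transcripts. Which of them was expressed was not determined, so it may differ from the length of the captured molecules. Spearman's rho was -0.37 in control 1, 0.14 in control 2, 0.66 in knockout 1, -0.43 in knockout 2 and 0.07 in knockout 3, across genes that share each library's depth and chemistry. The 10 members under 500 bases deviated by a median of 0.16 in control 1, -0.04 in control 2, -0.32 in knockout 1, 0.08 in knockout 2 and 0.14 in knockout 3. Other genes under 500 bases (136) deviated by a median of 0.04, -0.05, -0.07, 0.03 and 0.01 in the same libraries, nearer to 0 than the members in all but control 2. Over all 8271 other genes rho was 0.09, -0.12, 0.12, 0.13 and -0.20, opposite in sign to that of the members in all libraries but knockout 1.

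Short members of several complexes took part. Atp5e, the epsilon subunit of F1, stood at 280 and 222 CPM in the controls and at 182, 236 and 230 CPM in the knockouts. Ndufa3, a small membrane subunit of complex I, stood at 112 and 67.1 CPM and at 54.8, 87.4 and 67.1 CPM. In both, control 1 was the highest library and knockout 1 the lowest. The mitochondrially encoded mt-Nd3, a short core subunit of complex I, stood at 145, 40.4, 50.5, 83.0 and 72.1 CPM, with its highest value in control 1 and its lowest in control 2. The long mt-Co1 varied less, from 3738 to 4837 CPM. How much library preparation adds to this pattern was not tested.

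**Figure D5:**
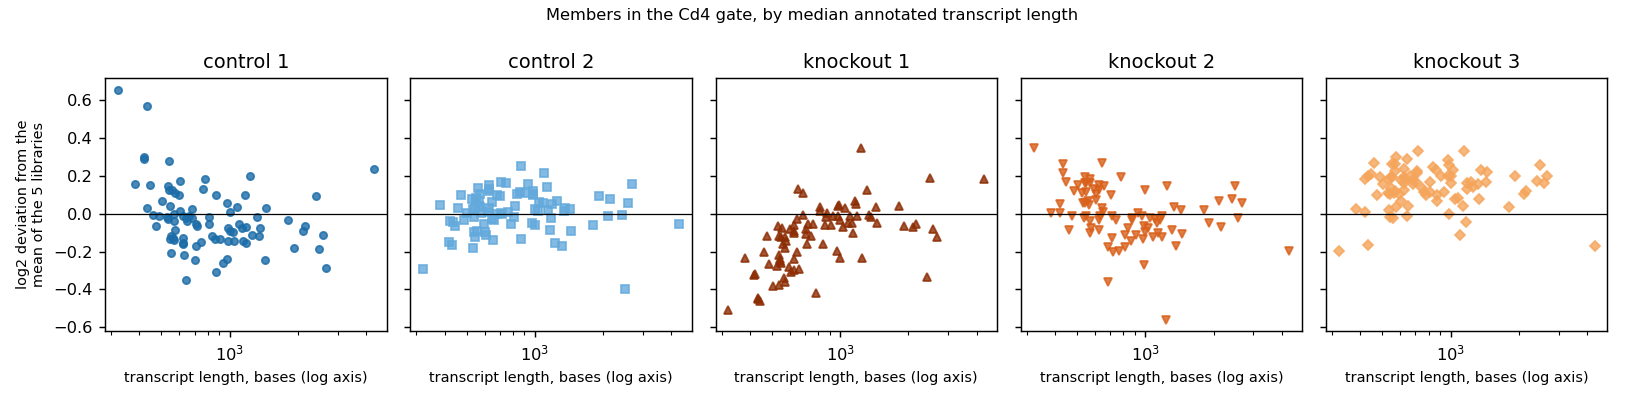
Log2 deviation of each of 87 members from its mean over the 5 libraries in the Cd4 gate, against the median annotated transcript length in bases (log axis), with 1 panel per library. Short members lie low in knockout 1 (rho 0.66) and tend to lie high in control 1 and knockout 2 (rho -0.37 and -0.43).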

How the data were processed

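Single-cell RNA libraries from 5 samples (2 control, 3 knockout) were deposited as whole-number UMI counts per gene and cell. Per the file headers the matrices came from Cell Ranger 8.0.0, and the submitters' processing notes name Cell Ranger 8.0, Seurat 5.1.0 and mm10. Whether the authors called doublets is not given in the sources used here. None were called here, and an alternative left out the 5% of cells with the most UMIs per library.

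Cells with at least 500 genes and under 10% mitochondrial UMIs were kept (alternatives 200 and 20%, 1000 and 5%) and gated by their own UMIs. No clustering was done. Raw counts were summed per library and gate and tested over all genes with edgeR 4.0.16 in R 4.3.3 (TMM, filterByExpr, quasi-likelihood F test, Benjamini-Hochberg, threshold 0.05), with the library as a term for comparisons within libraries. Adjusted p values are edgeR's unless another tool is named. Standard errors were taken as the absolute log2 fold change divided by the square root of F. The scripts were tested on simulated data first. The alternatives were DESeq2 1.42.0, other scalings, no count filter, other gates, each library left out, the labels' replicate number as a block, and each cell thinned to 2000 UMIs, which left out 296, 1816, 335, 1618 and 832 cells in controls 1 and 2 and knockouts 1, 2 and 3. The comparisons by depth and by Mki67 or Top2a, thinning after gating and the C1q gate without T cell transcripts were added after values were seen. The replicate numbers of the labels pair no samples by origin.

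Each comparison named up to 8 members per direction with the smallest p among those called, filled up to 3 with members that did not pass. A set of 22 subunits, the 8 tissue-restricted isoforms and members lost to the count filter were always named. Of the other mitochondrial lists, up to 4 genes each were named. Other genes were named after their values were seen. The members and the lists were chosen with earlier results of these data known. Gene positions are those of GENCODE M21 (GRCm38) and promoters those of RefSeq (GRCm38.p6).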

Additional observations from a re-analysis of the deposited data

How the results depend on the processing

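Values are given as main result, then alternative, and the cause of each change was not tested. Unless a share of all genes is printed beside them, counts of members called are given without that background. In the knockout comparison of the Cd4 gate, 0 calls became 1 (Cox6a2) with no count filter. No paired origin is given for the replicate numbers, of which the groups share only 2. With the replicate number as a block, 0 members were called in each of the 4 knockout comparisons, and the median log2 fold changes were -0.08 (Foxp3 gate), -0.09 (Cd4), -0.02 (C1q) and -0.09 (all cells). For the Foxp3 minus the Cd4 gate, 4 higher calls became 2 to 12 with a library left out (2 without control 1, knockout 1 or knockout 2 and 12 without knockout 3), 0 with thinning before gating, 1 with thinning after it and 0 without the library term. The 5 lower calls became 3 with DESeq2, 2 to 6 with a library left out, 10 with thinning before gating, 9 without the deepest 5% of cells and 0 without the library term. The difference in share of UMIs went from 0.0343 to -0.0859 percentage points with thinning before gating. Under that setting Atp5d (-0.053) and Uqcr10 (-0.172) reversed, and Uqcr10 was at -0.002 with thinning after gating.

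For the C1q minus the Cd4 gate, 42 higher calls became 21 with DESeq2, 18 with no count filter, 24 to 43 with a library left out, 21 with thinning before gating, 1 without the library term (Cox6b2) and 2 without cells that had T cell transcripts. The 6 lower calls became 3 to 6 with a library left out, 1 with thinning before gating (Ndufa10), 1 without the deepest 5% of cells (Ndufs1) and 0 with thinning after gating or without the library term. The difference in share went from 0.0747 to 0.118 and 0.120 points with thinning before and after gating and to -0.0297 without T cell transcripts. Ndufaf2 reversed to 0.034 and 0.093 with thinning before and after gating, and Atp5e (-0.036), Cox6c (-0.088) and Atp5k (-0.471) reversed without T cell transcripts.

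Between the deepest and the shallowest quartile, 71 higher calls became 34 in the Cd4 gate and 75 of 87 tested became 43 of 71 tested in the Foxp3 gate without Mki67 or Top2a cells, where 11.0% and 13.5% of all genes were called higher. The 2 lower calls in the Cd4 gate became 0 with DESeq2, 0 with no count filter, 0 to 4 with a library left out and 1 without those cells. Between cells with and without a Mki67 or Top2a UMI, 4 lower calls became 1 with DESeq2, 2 to 3 with a library left out and 1 within the deepest quartile. Over 282 named members by comparison, 3616 of 3853 alternative values stayed on the same side of the threshold. Another 207 lost the call and 22 gained one. The other 8 changed sign, with a call in the main result, the alternative or both. Sign changes without a call in either were counted among the 3616. Few molecules lie behind the scarce isoforms and few cells behind the C1q gate without T cell transcripts. The deepest Foxp3 quartile without Mki67 or Top2a cells also held few cells, 9 to 37 per library.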
